A study of Mus musculus with 24 samples.

Results

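The windows described here are the 200 bp bins of chromosome 7 at which 5-hydroxymethylcytosine (5hmC) was listed as different between 2 mouse embryonic stem cell (ESC) lines. The members were chosen by position and direction in the authors' lists: every chromosome 7 bin of the Wt25 list and of the AA10 list, except a stretch whose windows span chr7:16242803-16401800. This left 1165 of the 20726 listed windows, 847 higher in Wt25 and 318 higher in AA10. The chromosome was selected on the measured 5hmC difference, because most of its windows were higher in Wt25, both before and after its midpoint. That excess, over the whole chromosome and on each side of the midpoint, is a description of the selection and was not tested. Over all chromosomes, 58.4% of the listed windows were higher in Wt25, and over the chromosomes other than 7 it was 57.2%.

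Both lines were derived from ESCs of a mixed C57BL/6J-129V background in which *Tet1*, *Tet2* and *Tet3* had been knocked out, and both carried a lentiviral, puromycin-selected human Tet3. Wt25 expressed the wild type protein and AA10 the phosphor mutant, in which the serines at the cdk5 sites were changed to alanine. Each line was 1 clone, so an effect of the mutation and a difference between clones cannot be told apart. There were 3 libraries of 5hmC-DIP for each line, in which an antibody pulls down DNA fragments that carry 5hmC. The authors' lists pool these libraries and give a position, a direction and, for most windows, a gene. Neither counts nor a size or P-value of the difference are listed, so the depth behind a window and its spread between replicates are not known here, and no statement below rests on a test. Intervals on shares are 95% Wilson intervals, which cover the number of windows only, and neighbouring windows are not independent.

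Tet enzymes oxidise 5-methylcytosine to 5hmC, almost always at CpG dinucleotides, and 5hmC is found in gene bodies and at enhancers. Mouse chromosome 7 alternates between gene-dense stretches of housekeeping genes and large clusters of recently duplicated genes, such as vomeronasal and olfactory receptors, zinc finger genes and pregnancy-specific glycoproteins. It also carries well-known imprinted domains around *Peg3*, *Snrpn* and *Igf2*.

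The sequences below are windows on the plus strand of GRCm38.p6, in lower case with every CpG in capitals. The first lines hold Wt25 windows from the places with the largest Wt25 excess. They are the unmasked window with most CpGs, outside promoters and UTRs, in the longest uninterrupted Wt25 run, at chr7:28546803-28547000 in a coding exon of *Nccrp1*; the same for *Sipa1l3*, the gene with most Wt25 windows, at chr7:29412603-29412800 in an intron; the same for *Plekha7*, at chr7:116132403-116132600 in an intron; the Wt25 window with most CpGs outside promoters, UTRs and repeats, at chr7:4836203-4836400 in a coding exon of *Shisa7*; and an intergenic window of the *Psg* cluster at chr7:18403003-18403200. The last 3 were chosen after their values were seen.
Nccrp1: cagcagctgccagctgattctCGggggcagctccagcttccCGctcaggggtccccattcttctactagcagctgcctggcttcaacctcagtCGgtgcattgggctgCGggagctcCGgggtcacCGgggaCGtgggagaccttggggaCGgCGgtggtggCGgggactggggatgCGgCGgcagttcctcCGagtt
Sipa1l3: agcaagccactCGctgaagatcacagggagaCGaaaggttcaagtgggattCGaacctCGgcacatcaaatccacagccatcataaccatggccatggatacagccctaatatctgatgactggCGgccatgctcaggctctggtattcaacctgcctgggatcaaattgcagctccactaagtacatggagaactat
Plekha7: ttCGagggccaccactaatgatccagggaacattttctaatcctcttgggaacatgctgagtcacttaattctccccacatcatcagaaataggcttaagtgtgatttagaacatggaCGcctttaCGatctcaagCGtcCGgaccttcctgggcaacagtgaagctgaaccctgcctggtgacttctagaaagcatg
Shisa7: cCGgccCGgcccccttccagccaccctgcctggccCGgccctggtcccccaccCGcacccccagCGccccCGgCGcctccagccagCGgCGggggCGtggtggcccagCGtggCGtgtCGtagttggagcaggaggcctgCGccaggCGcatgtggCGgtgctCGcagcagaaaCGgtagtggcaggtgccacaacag
Psg28: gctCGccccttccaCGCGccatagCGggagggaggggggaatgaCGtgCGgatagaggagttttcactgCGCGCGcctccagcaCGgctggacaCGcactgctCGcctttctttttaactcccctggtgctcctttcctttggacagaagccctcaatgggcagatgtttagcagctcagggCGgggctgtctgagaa

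The next lines hold AA10 windows from the places where that direction prevailed. They are the unmasked window with most CpGs in the longest AA10 run, at chr7:7136403-7136600 in a coding exon of *Zfp773*; the same for *Cyp2b13*, the gene with most AA10 windows, at chr7:26072203-26072400 in an intron; an intronic window of *Cic* at chr7:25275603-25275800; and, of the 22 windows without a unique 32-mer in a dense AA10 cluster between vomeronasal receptor genes, that with most CpGs, at chr7:7529203-7529400. The last 2 were chosen after their values were seen.
Zfp773: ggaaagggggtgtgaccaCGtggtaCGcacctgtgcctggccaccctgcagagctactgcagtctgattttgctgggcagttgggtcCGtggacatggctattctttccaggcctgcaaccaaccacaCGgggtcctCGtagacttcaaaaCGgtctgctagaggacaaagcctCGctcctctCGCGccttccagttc
Cyp2b13: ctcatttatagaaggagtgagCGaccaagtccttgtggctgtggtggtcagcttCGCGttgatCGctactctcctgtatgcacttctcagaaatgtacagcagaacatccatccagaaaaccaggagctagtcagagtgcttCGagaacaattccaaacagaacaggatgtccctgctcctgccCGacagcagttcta
Cic: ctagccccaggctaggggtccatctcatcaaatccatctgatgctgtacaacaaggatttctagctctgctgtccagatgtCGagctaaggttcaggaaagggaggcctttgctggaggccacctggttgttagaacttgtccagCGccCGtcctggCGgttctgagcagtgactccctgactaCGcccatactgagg
Vmn2r33 side: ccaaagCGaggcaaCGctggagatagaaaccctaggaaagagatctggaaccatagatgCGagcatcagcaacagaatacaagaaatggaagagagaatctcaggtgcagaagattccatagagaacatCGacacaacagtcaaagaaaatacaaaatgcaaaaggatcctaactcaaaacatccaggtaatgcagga

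The *Nccrp1* window held 13 CpGs, the *Shisa7* window 18 and the *Psg28* window 13, whereas the intronic windows of *Sipa1l3* and *Plekha7* held 5 each. The AA10 windows of *Zfp773*, *Cyp2b13* and *Cic* held 9, 6 and 5. All 32-base stretches of the *Nccrp1*, *Sipa1l3*, *Plekha7*, *Shisa7*, *Zfp773* and *Cic* windows occurred 1 time in the genome. Of those of the *Cyp2b13* window 54.5% did, and that window lies within a span that GENCODE names *Rnf170-ps*, chr7:26072073-26072931. None of those of the dense cluster window was unique, and their median number of genomic copies was 3842.

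Wt25 windows made up 72.7% of the windows of chromosome 7 (70.1 to 75.2). The share was 72.9% (69.5 to 76.1) before the midpoint of the chromosome, with 517 Wt25 and 192 AA10 windows. After the midpoint it was 72.4% (68.1 to 76.3), with 330 and 126. A Wt25 majority on each side was part of the selection. Among the 21 chromosomes, 3 had a larger Wt25 share: chromosome 19 with 81.4% (78.4 to 84.1), chromosome 2 with 73.9% (71.6 to 76) and chromosome 14 with 73.1% (69.7 to 76.3). The intervals of chromosomes 2, 14 and 7 overlapped. At the other end, chromosome 6 had 12% (10.2 to 14). Per Mb, chromosome 7 held 5.82 Wt25 windows, the 8th highest density, and 2.19 AA10 windows, the 16th. The counts of chromosome 7 leave out the 120 Wt25 windows of the excluded stretch, but its densities are over the full 145.4 Mb. No other chromosome was trimmed, so its Wt25 density and ranks are lower than with that stretch. With the stretch put back, the Wt25 share was 75.3%, above those of chromosomes 2 and 14.

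**Figure D1:**
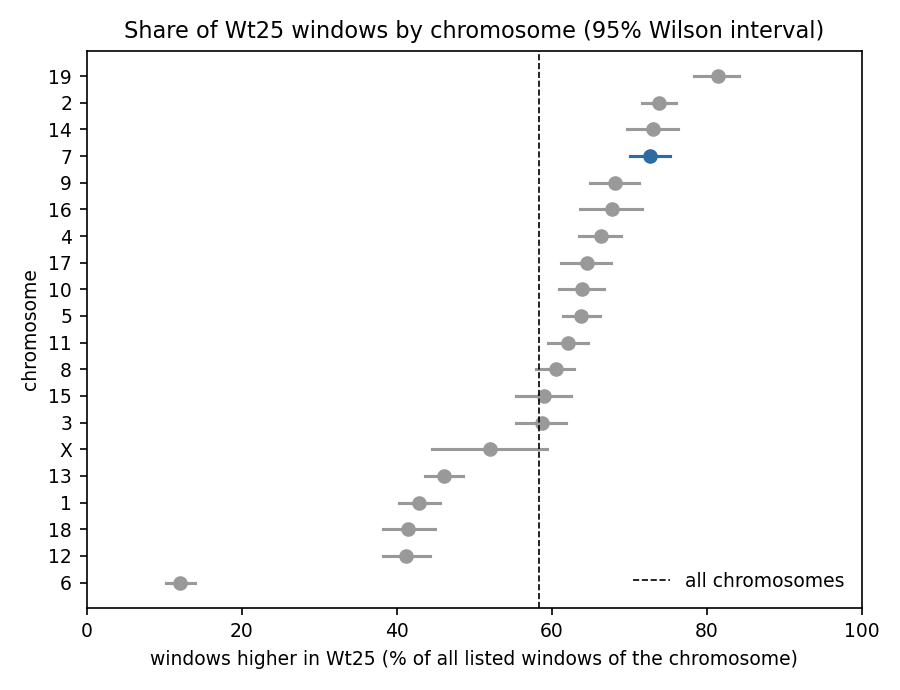
Share of listed windows that were higher in Wt25 on each chromosome, in percent, with chromosome 7 in blue, other chromosomes in grey and horizontal bars for 95% Wilson intervals. Chromosome 7, at 72.7% with 120 Wt25 windows left out, is the fourth from the top. It lies right of the dashed line at 58.4% for all chromosomes. Chromosome Y, with 7 windows, is not drawn.

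The border of the members was set by position. The last member before it was a Wt25 window at chr7:16105803-16106000 near *Napa*, and the first member after it a Wt25 window at chr7:16446403-16446600 near *Tmem160*. The first window left out lay at chr7:16242803-16243000 near *C5ar2* and the last at chr7:16401603-16401800 near *Zc3h4*. All 120 windows left out were higher in Wt25.

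The Wt25 excess, 847 minus 318 windows or 529, was not spread evenly. Of the 15 segments of 10 Mb, 13 held more Wt25 than AA10 windows. The segment from 20 to 30 Mb carried the largest part, with 157 Wt25 and 45 AA10 windows. The segment from 10 to 20 Mb had 107 and 9, although the stretch named above was not counted. The segment from 30 to 40 Mb had 84 and 20, and that from 110 to 120 Mb had 71 and 15. The end of the chromosome, from 140 Mb on, had 39 and 3. Few windows of either direction lay between 50 and 60 Mb, with 12 and 8. AA10 windows outnumbered Wt25 windows from 0 to 10 Mb, with 79 against 55, and from 120 to 130 Mb, with 41 against 27. The first of these rested on a single cluster of 51 AA10 windows in multi-copy sequence, described below: without it the segment held 28 AA10 against 55 Wt25 windows, and with windows within 1 kb joined 29 against 42. Wt25 then prevailed in 14 of the 15 segments in either setting, whereas from 120 to 130 Mb AA10 still did, with 41 against 27 and 38 against 23.

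**Figure D2:**
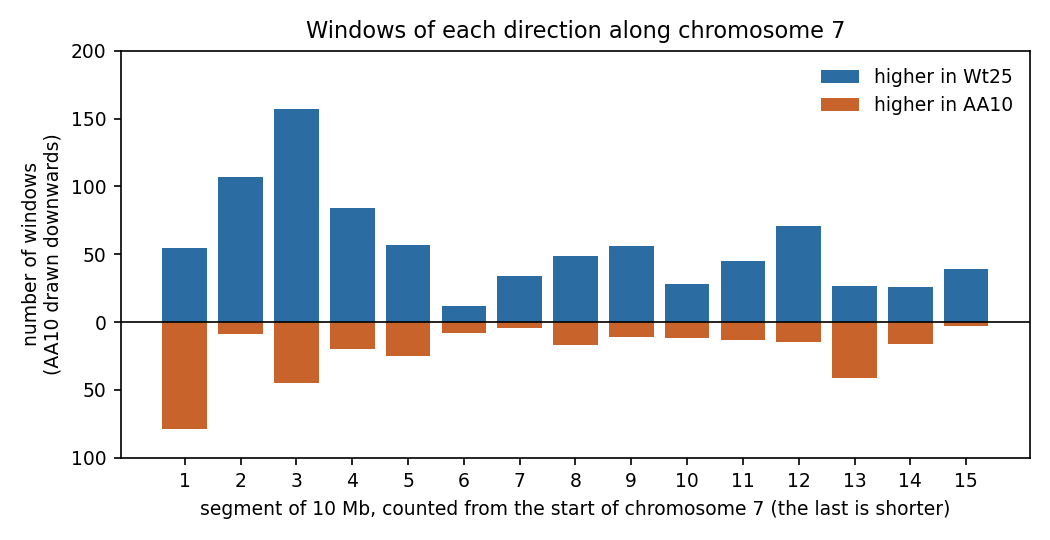
Number of windows per 10 Mb segment of chromosome 7, Wt25 drawn upwards and AA10 downwards; segments are numbered from the start of the chromosome. The third segment holds most Wt25 windows, 157, and AA10 windows exceed Wt25 windows in the first and the thirteenth segments, the first only with the dense cluster of 51 AA10 windows and without joining of windows within 1 kb.

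At 1 Mb, 122 of 146 segments held a window and 65 held at least 5. Wt25 prevailed in 54 of these 65 and AA10 in 11. Only Wt25 windows were listed in 12 of them and only AA10 windows in 2. The 10 segments with the largest excess held 371 Wt25 and 19 AA10 windows, 43.8% of all Wt25 windows of the chromosome and 66.5% of the excess. Outside these 10, the Wt25 share was 61.4% (57.9 to 64.8), with 476 and 299 windows. Outside the 20 with the largest excess it was 53.5% (49.5 to 57.5). The segments were ranked by the excess itself, so the remaining share falls by construction.

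**Figure D3:**
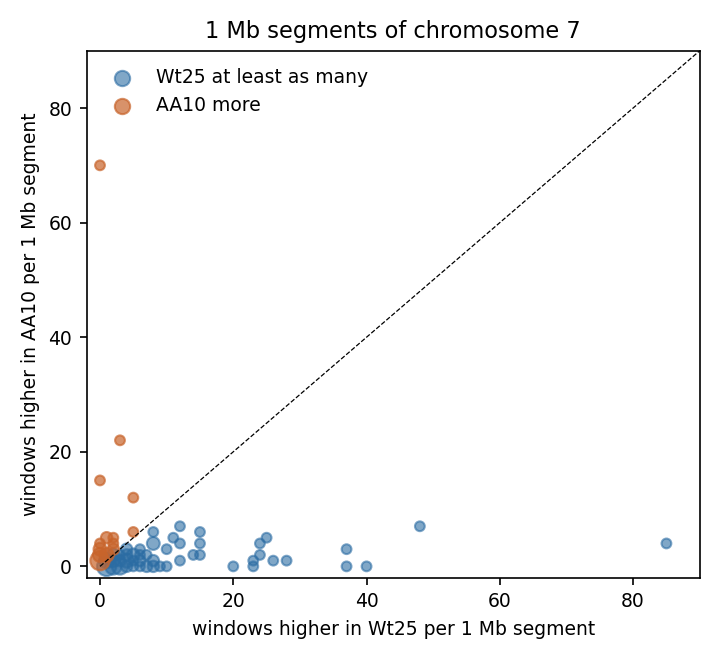
Each point is a 1 Mb segment of chromosome 7, with its Wt25 windows on the horizontal and its AA10 windows on the vertical axis; larger points stand for several segments with the same counts. The dashed line marks equal counts. Of the 65 segments with at least 5 windows, 12 held only Wt25 and 2 only AA10 windows, and the others held both. The counts were 85 and 4 in the segment richest in Wt25 windows and 0 and 70 in that richest in AA10 windows.

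The segment from 29 to 30 Mb held 85 Wt25 and 4 AA10 windows, 15.3% of the excess. It was followed by 4 to 5 Mb with 48 and 7, 16 to 17 Mb with 40 and 0, 28 to 29 Mb with 37 and 0, and 80 to 81 Mb with 37 and 3. The next were 18 to 19 Mb with 28 and 1, 116 to 117 Mb with 26 and 1, 14 to 15 Mb with 23 and 0, 45 to 46 Mb with 24 and 2, and 141 to 142 Mb with 23 and 1. The list mixes gene-dense stretches, as at 28 and 141 Mb, with clusters of duplicated genes, as at 14 and 18 Mb.

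*Sipa1l3* carried more Wt25 windows than any other RefSeq gene of the chromosome. This gene encodes a GTPase-activating protein for Rap and is known for its role in epithelial cell polarity. It spans 185.1 kb on the minus strand (chr7:29320378-29505460) and held 37 Wt25 and 0 AA10 windows, all in introns, from 2.36 to 167 kb from its start. The windows were spaced by a median of 1.6 kb, and the largest gap was 65 kb. They held 1 to 5 CpGs with a median of 2, and 88 CpGs in all. In 30 of the 37 every 32-mer was unique to the position. The windows of its 5′ end formed a chain of 19 windows with gaps of at most 10000 bp that reached beyond the gene (chr7:29485203-29526600), and a chain of 16 lay inside it (chr7:29412603-29449400). The deposited annotation, which assigns a gene to most windows, named *Sipa1l3* for 64 Wt25 windows.

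*Plekha7*, which encodes a protein of the zonula adherens, held 16 Wt25 and 0 AA10 windows over 184.9 kb (chr7:116123485-116308376). Of these, 12 were intronic, 1 was in a coding exon and 3 touching windows (chr7:116189603-116190200) lay at an internal start site of the gene. *Tead1*, the DNA-binding partner of the Hippo pathway coactivators, held 11 Wt25 and 2 AA10 windows over 227.4 kb (chr7:112679356-112906784), all intronic and all in unique sequence. *Strn4*, a striatin that is a regulatory subunit of protein phosphatase 2A, held 8 Wt25 windows in 25.0 kb (chr7:16815889-16840931), a density of 31.9 windows per 100 kb. For *Sipa1l3* the density was 20 per 100 kb, for *Plekha7* 8.65 and for *Tead1*, both directions together, 5.72.

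The neighbours *Shisa7*, *Isoc2b* and *Isoc2a* formed a compact Wt25 group near the start of the chromosome (chr7:4825552-4895717). *Shisa7*, which encodes a transmembrane partner of neurotransmitter receptors, held 7 Wt25 windows in 19.1 kb, at 36.6 per 100 kb. Of these, 2 adjacent windows in a coding exon had 13 and 18 CpGs and 3 touching windows lay in the 3′ UTR. *Isoc2b* and *Isoc2a*, which encode isochorismatase domain proteins, held 6 each. Those of *Isoc2a* had 55.6% unique 32-mers on average and those of *Isoc2b* 95.1%.

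The other leading Wt25 genes had 5 or 6 windows each. *Abhd2*, a lipid hydrolase gene, held 6 Wt25 and 1 AA10 windows over 88.3 kb. *Sult2a3*, a steroid and bile acid sulfotransferase gene, held 5 over 55.5 kb, with 65.7% unique 32-mers. *Pepd*, which encodes a dipeptidase for proline-containing peptides, held 5 over 132.3 kb. *Herc2*, a large ubiquitin ligase gene, held 5 over 181.6 kb, and *Zfp592*, a zinc finger gene, 5 over 51.5 kb. None of these last 4 genes held an AA10 window. The 12 genes with most Wt25 windows together held 117 of them, 13.8% of the Wt25 windows of the chromosome. The Wt25 windows therefore lay for the most part outside the leading genes.

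**Figure D4:**
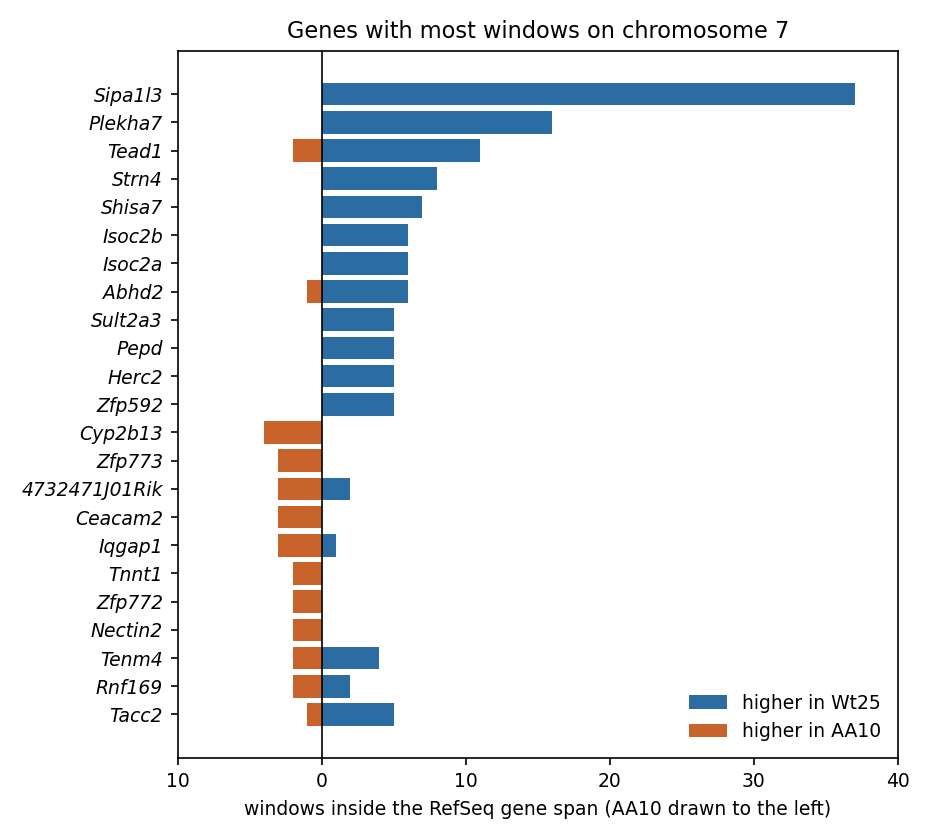
Windows inside the RefSeq spans of the 12 genes with most Wt25 windows, the 8 with most AA10 windows and the 6 with most of both, each gene drawn 1 time, with Wt25 to the right and AA10 to the left. *Sipa1l3* reaches 37 Wt25 windows, whereas the longest AA10 bar, *Cyp2b13*, is 4.

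Taken in order along the chromosome, Wt25 windows formed long uninterrupted runs. The longest held 128 windows (chr7:27637203-29703800) across 74 RefSeq genes, from *Akt2* to *Catsperg2*. Beside *Sipa1l3*, it had 4 windows each in *Gmfg*, a glia maturation factor gene, and *Ryr1*, the calcium release channel of skeletal muscle, and 3 in *Zfp60*. Of its 128 windows, 66 were intronic and 54 intergenic. The GENCODE span of *Samd4b*, an RNA-binding protein gene, is longer than the RefSeq gene (chr7:28399522-28598144) and held 19 Wt25 and 0 AA10 windows.

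The next run held 93 Wt25 windows (chr7:13990603-18642400), and it passed across the region left out. Its genes included *Strn4* with 8, *Sult2a3* with 5, *Sult2a6* with 4, *Ceacam-ps1* with 4, *Psg18* with 4 and *Ceacam15* with 3. A run of 51 (chr7:4701203-6225200) spanned the *Shisa7* and *Isoc2* genes and held 3 windows in *Brsk1*, a kinase of neuronal polarity, and 2 in *Il11*, a cytokine gene. A run of 30 (chr7:114104403-116430800) held the *Plekha7* windows, 3 in *Pik3c2a* and 1 in *Sox6*. A run of 27 within 216 kb (chr7:80820803-81036400) held 5 windows in *Zfp592* and 4 in *Zscan2*, and 18 of its windows were intergenic. A run of 26 (chr7:63503003-66447800) held 3 windows each in *Trpm1*, a cation channel gene of retina and melanocytes, *Pcsk6*, a proprotein convertase gene, and *Lrrk1*, a kinase gene. There were 101 Wt25 runs and 100 AA10 runs, numbers that can differ by 1 at most because the directions alternate. Runs of at least 5 held 84.1% of the Wt25 windows and 55.3% of the AA10 windows. A Wt25 majority alone makes Wt25 runs longer, and the part of the majority in these lengths was not tested.

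Duplicated gene families near Wt25 windows were read by the nearest RefSeq start site. The secretoglobins, small secreted proteins that include the androgen-binding proteins of saliva, had 23 Wt25 and 0 AA10 windows nearest to them, none of them inside a gene. Of these, 19 formed a chain around *Scgb2b6* (chr7:31588603-31630800) in which 38.6% of 32-mers were unique on average. The *Sult2a* genes had 24 and 0. The *Psg* genes, which encode pregnancy-specific glycoproteins of the trophoblast, had 19 and 0, and 4 of these touched each other inside *Psg18* (chr7:18352803-18353600). These 3 families were looked up after their values had been seen. Other duplicated families had windows of both directions nearest to them. The *Ceacam* genes had 10 Wt25 and 3 AA10 windows, the *Vmn1r* genes 7 and 6 and the *Vmn2r* genes 3 and 56. Over the whole chromosome the counts were 847 and 318. Windows nearest to the secretoglobin, *Sult2a* and *Psg* genes had on average 36.1%, 60.6% and 70% of unique 32-mers. For all Wt25 windows of the chromosome it was 86%.

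AA10 windows prevailed in 11 of the 65 segments of 1 Mb with at least 5 windows. These 11 held 150 AA10 windows, 47.2% of those of the chromosome, and 23 Wt25 windows. The segment from 7 to 8 Mb held 70 AA10 and 0 Wt25 windows. The segment from 25 to 26 Mb held 22 and 3, that from 126 to 127 Mb 15 and 0, and that from 127 to 128 Mb 12 and 5. The others were small: 23 to 24 Mb with 5 and 1, 58 to 59 Mb with 5 and 1, 122 to 123 Mb with 5 and 2, 39 to 40 Mb with 4 and 2, 81 to 82 Mb with 6 and 5, and 44 to 45 Mb and 109 to 110 Mb with 3 and 2 each. In the last 3 of these the directions differed by 1 window.

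The segment from 7 to 8 Mb was part of the longest AA10 run, 72 windows (chr7:6858803-11823600) with 61 of them intergenic. A cluster of 51 lay within 37 kb (chr7:7511403-7548400), between the vomeronasal receptor genes *Vmn2r32* and *Vmn2r33*, which encode pheromone receptors. Of the bins in its span, 27.6% were listed. It held 16% of the AA10 windows of the chromosome. All 51 windows lay in sequence with more than 1 genomic copy, the median copy number of a window's 32-mers ran from 2 to 10369, and 22 windows had no unique 32-mer. On average 8.9% of 32-mers were unique and 76% of bases were marked as repeats. What the copies contribute to this cluster was not tested.

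Of all 72 windows of the run, 56 had a median copy number above 1, so a few outside the cluster did too. These included windows in and beside *Vmn2r32*, at chr7:7473403-7473600 with 41.3% unique 32-mers, at chr7:7482403-7482600 with 0% and at chr7:7487003-7487200 with 6%. Other windows of the run lay in single-copy sequence. *Zfp773*, a zinc finger gene of 6.1 kb (chr7:7130678-7136755), held 3 AA10 windows, 2 in coding exons and 1 in an intron, and a further window lay at -146 bp from its start. All 4 were in fully unique sequence. *Zfp772* held 2 intronic windows with 38.3% unique 32-mers, and *Zfp954* and *Zfp418* held 1 each. *Usp29*, a paternally expressed gene of the *Peg3* domain, held 1 intronic window in unique sequence. Among the zinc finger genes of the first 12 Mb, 8 AA10 and 3 Wt25 windows lay inside a gene. This limit was set after the values had been seen. From 0 to 10 Mb, AA10 windows numbered 79 and Wt25 windows 55 in all.

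A group of AA10 runs lay around the segment from 25 to 26 Mb and ended in *Cyp2b13*. The first, of 13 windows, spanned 14 genes and had a mean of 4.15 CpGs and 51.1% GC per window. Intronic windows lay in *Pou2f2*, a POU domain transcription factor, *D930028M14Rik*, *Cic*, a transcriptional repressor of receptor tyrosine kinase signalling, and *Pafah1b3*. A window at -241 bp from the start of *Pou2f2* held 9 CpGs and was unique, and a window lay at the end of *Cic*. The second run, of 6 windows (chr7:25532003-25647600), held 3 in *Ceacam2*, a cell adhesion gene, and 2 in *Bckdha*, a subunit gene of the branched-chain keto acid dehydrogenase. The 3 windows of *Ceacam2* also lie inside the non-coding gene *4732471J01Rik*, which held 2 Wt25 windows as well. The third run, of 8 windows (chr7:25662003-26083400), held 3 touching windows upstream of *Tmem91*, at -1735, -1935 and -2135 bp from its start, and 4 in *Cyp2b13*.

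*Cyp2b13*, a cytochrome P450 gene of 34.7 kb (chr7:26061495-26096196), held more AA10 windows than any other gene. Its 4 windows had 33.5% unique 32-mers on average, from 15 to 54.5%, and 1 to 6 CpGs. Other *Cyp2* genes lie nearby, and of the 15 genes of this list on chromosome 7 it was the only RefSeq gene with a window inside. By nearest start site, the list had 5 Wt25 and 4 AA10 windows, the 5 near *Cyp2a4*, *Cyp2a12*, *Cyp2b19* and *Cyp2g1*. The Wt25 run that followed (chr7:26251803-27187600) held 17 windows, with 2 in *Nlrp9a* and 1 in *Nlrp4a*, members of a family expressed in oocytes.

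The second large AA10 stretch was a run of 22 windows over 1256 kb of a gene-dense region (chr7:126346403-127602400), which spans 75 RefSeq genes. In contrast to the run at 7 Mb, 92.1% of its 32-mers were unique on average, and 1 of its 22 windows had a median copy number above 1. Of the 22, 10 were intergenic, 8 intronic and 2 in promoters. *Coro1a*, which encodes an actin-binding protein of leukocytes, held 2 windows, at 119 and 319 bp from its start. *Mapk3*, the ERK1 kinase gene, *Tbx6*, a T-box factor of the paraxial mesoderm, *Tlcd3b*, *Kctd13*, *Cln3*, *Srcap*, a chromatin remodeller, *Rnf40*, a histone H2B ubiquitin ligase, and *Zfp747* held 1 each. A window at -254 bp from the start of *Aldoa*, a glycolytic enzyme gene, held 1 CpG. Just beyond this run lay *Zfp629*, with 2 AA10 windows at its start and 1 Wt25 window, and *Bcl7c*, a subunit gene of the BAF chromatin remodelling complex, with 3 Wt25 windows.

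The remaining AA10 runs of at least 5 windows were short. A run of 7 (chr7:4134403-4602800) held 2 windows in *Tnnt1*, the slow skeletal troponin T gene, and 1 each in *Ttyh1*, *Ppp1r12c* and *Ptprh*, and the next run was the Wt25 run that holds *Shisa7*. A run of 7 over 3911 kb (chr7:134746003-138656800) held 1 window each in *Dock1*, *Gm6249* and *Mgmt*, a DNA repair gene, and all its windows were in unique sequence. A run of 6 (chr7:43872003-44873800) had 1 window each in *Klk4* and *Klk15*, kallikrein protease genes, *Nup62* and *Il4i1b*. Runs of 5 lay in the zinc finger genes *Zfp27*, *Zfp74* and *Zfp568* (chr7:29902803-30034400), around *Vmn1r169* (chr7:23574403-23592600), around *St8sia2* (chr7:73856803-74018600), from *Alpk3* to *Ap3b2* (chr7:81100403-81488400), from *Cog7* to *Chp2* (chr7:121967803-122229400), across 30 genes with 1 window in *Tial1* (chr7:127726603-128448200) and between *Pop4* and *1700010N08Rik* (chr7:38236603-39195600). The *Vmn1r169* run had 25.4% unique 32-mers and the *St8sia2* run 100%. Of the 11 segments in which AA10 prevailed, those at 7, 23 and 39 Mb had 25.2%, 28.7% and 46.2% unique 32-mers on average, and the other 8 had 87.3% to 97.5%.

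In the segment from 58 to 59 Mb, 5 AA10 windows had *Atp10a*, a phospholipid flippase gene near the imprinted *Snrpn* domain, as their nearest gene. None lay inside it: 4 were upstream of its start, at -504, -216, -150 and -93.5 kb, and the fifth was 186 kb downstream of the start. A Wt25 window was 202 bases away from the last of them.

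Of the 2308 RefSeq genes of chromosome 7, 321 had at least 1 window inside. Wt25 windows lay in 233 genes and AA10 windows in 117, and 29 genes had both. Most genes rested on 1 window: 60.5% of the genes with a Wt25 window and 80.3% of those with an AA10 window. At least 4 windows of the direction were found in 25 genes for Wt25 and in 1 for AA10. Of the 128 genes with at least 2 windows, 82 had only Wt25, 17 only AA10 and 29 both, so 77.3% had windows of 1 direction. Inside any gene there were 458 Wt25 and 140 AA10 windows. Such a majority alone gives many genes with windows of 1 direction and more genes with several Wt25 windows. Its part in these counts was not tested.

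The genes with windows of both directions were led by *Tead1* with 11 Wt25 and 2 AA10 windows, followed by *Tenm4*, a teneurin of neuronal connectivity, with 4 and 2, *4732471J01Rik* with 2 and 3, and *Rnf169*, a ubiquitin-binding protein gene of the DNA damage response, with 2 and 2. *Abhd2* had 6 and 1 and *Tacc2*, a centrosomal coiled-coil gene, 5 and 1. *Iqgap1*, which encodes an actin scaffold, had 1 and 3, all in unique sequence. Wt25 and AA10 windows at most 1 kb apart were rare. There were 5 such pairs, in *Exosc5* with 2 bases between the windows, beside *Atp10a* with 202, beside *B4galnt4* with 202, in *Arhgap17* with 402 and in *Tead1* with 802. In *Exosc5* the Wt25 bin and the AA10 bin are direct neighbours in an intron, with 4 and 1 CpGs. The *Tead1* pair is printed as an example of opposite directions within a gene, and each window holds 1 CpG. The AA10 window lies at chr7:112686003-112686200 and the Wt25 window at chr7:112687003-112687200.
Tead1 AA10: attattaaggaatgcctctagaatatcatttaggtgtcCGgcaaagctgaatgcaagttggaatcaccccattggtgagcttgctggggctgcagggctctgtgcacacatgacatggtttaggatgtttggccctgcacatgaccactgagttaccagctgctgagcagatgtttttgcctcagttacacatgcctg
Tead1 Wt25: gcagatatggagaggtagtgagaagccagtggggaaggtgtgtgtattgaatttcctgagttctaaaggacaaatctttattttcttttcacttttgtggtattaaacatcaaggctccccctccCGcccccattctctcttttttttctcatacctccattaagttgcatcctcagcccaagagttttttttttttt

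The direction of each window was set beside that of the next listed window. Of 230 neighbours at most 1 kb apart, 97.8% had the same direction. The share was 92.9% of 269 at 1 to 10 kb, 80.7% of 398 at 10 to 100 kb and 62.9% of 267 at over 100 kb. On the other chromosomes it was 99%, 91.7%, 78% and 56.3%. A majority direction alone makes most neighbours alike, so the share at over 100 kb is not read as order along the chromosome, and the part of the majority in the other shares was not tested. Most windows stood alone: 634 of 847 Wt25 windows and 254 of 318 AA10 windows did not touch another. Of the blocks of touching windows, 2 of Wt25 held 4, in *Psg18* and near *Psg28*. The largest AA10 blocks, with 7 and 5 windows, lay in the dense cluster at 7 Mb.

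The gene lists were described by their counts and were not tested. Of all 2308 RefSeq genes, 204 had only Wt25 windows, 88 only AA10 windows and 29 both. Of 106 zinc finger genes, 9 had only Wt25 windows, 14 only AA10 windows, 3 both and 80 none, with 24 Wt25 and 25 AA10 windows inside. This count is close to even, whereas 458 Wt25 and 140 AA10 windows lay inside any gene. *Zfp592* held 5 Wt25 windows, *Zscan2* 4, and *Zfp60* and *Zfp536* 3 each. For AA10, *Zfp773* held 3, and *Zfp629*, *Zfp772*, *Zfp575*, *Zfp568*, *Zfp141* and *Zfp819* held 2 each. Vomeronasal receptors, 179 genes, had 1 window inside, an AA10 window in *Vmn2r32*, but 10 Wt25 and 62 AA10 windows nearest to their starts, of which 51 were the cluster described above. Olfactory receptors, 239 genes, had 2 windows inside, both Wt25 and both in *Olfr638*, and 15 Wt25 and 3 AA10 windows nearest. The *Ceacam* and *Psg* genes, 28 in all, had 11 Wt25 and 3 AA10 windows inside, all 3 AA10 windows in *Ceacam2*.

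Of the 33 imprinted genes, 27 had no window inside. Most genes of the chromosome had none, as 321 of all 2308 RefSeq genes held a window. *Snrpn* had 1 Wt25 and 1 AA10 window, *Igf2*, the fetal growth factor gene, *Cars* and *Dhcr7* 1 Wt25 window each, and *Usp29* and *Kcnq1* 1 AA10 window each. Genes of these domains that the list leaves out held windows too. From 59 to 60 Mb, 1 Wt25 window lay in both *Snhg14* and *Ipw*, and *Igf2os* held 1 Wt25 window. The windows of *Snrpn* also lay in *Snhg14*. Of 27 ion channel genes, *Trpm1* and *Ano1*, a calcium-activated chloride channel gene, had 3 Wt25 windows each, and *Chrna7* and *Kcnq1* 1 AA10 window each. Of 36 synapse and axon genes, 7 had only Wt25, 4 only AA10 and 2 both, with 20 and 9 windows inside. Inside any gene there were 458 Wt25 and 140 AA10 windows, a Wt25 majority as well. *Dlg2*, a scaffold of the postsynaptic density, had 4 Wt25 and 1 AA10 windows, *Lrfn1* and *Syt9* 2 Wt25 windows each, and *Nectin2* and *Nav2* 2 AA10 windows each. Of 32 homeobox and other transcription factor genes, 5 had a window, with 16 Wt25 and 3 AA10 windows inside. Beside *Tead1*, these were *Dbp* and *Klf13* with 2 Wt25 windows each, *Sox6* with 1 and *Pou2f2* with 1 AA10 window.

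Of 16 genes of growth factors and receptors, 3 had only Wt25 windows and 2 both. *Igf1r*, the receptor of insulin-like growth factor, had 4 Wt25 windows over 281.4 kb, *Fgf3* 3 in 4.7 kb, touching each other, and *Pcsk6* 3. *Fgfr2* and *Ltbp4* had 1 of each direction. Of 22 chromatin genes, 7 had only Wt25 and 3 only AA10, with 16 and 3 windows, against 458 and 140 inside any gene. Of the 16, 5 lay in *Zfp592*, which is also in the zinc finger list, and 3 in *Bcl7c*. *Chd2*, a chromatin remodeller, had 3 Wt25 windows and *Paf1*, a subunit of an elongation complex, 2, while *Kmt2b*, *Rnf40* and *Ctbp2* had 1 AA10 window each. Of 14 *Nlrp* genes, 2 had 3 Wt25 windows, and of 17 *Trim* genes, 2 had 3, in *Trim30d* and *Trim68*. Of 27 kallikrein genes 2 had an AA10 window, and of 6 *Ifitm* genes *Ifitm10* had 1 Wt25 window. The 6 genes of Siglec, *Cd22* and *Cd33*, 6 *Obox* genes, 19 *Mrgpr* genes and 5 *Krtap5* genes had no window inside. Over all 2308 RefSeq genes 321 held a window, so a gene without one was the usual case.

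Genomic features differed little between the directions for most classes. Introns held 45.3% of Wt25 windows (42 to 48.7) and 39.3% of AA10 windows (34.1 to 44.8), and 37.1% of all 200 bp bins of the chromosome. Intergenic sequence held 41.8% (38.5 to 45.1), 51.9% (46.4 to 57.3) and 55.8%. Without the dense cluster of 51 windows the intergenic share of AA10 was 42.7% (36.9 to 48.7), and its interval then overlapped that of Wt25. Promoters, from 1000 bp upstream to 100 bp downstream of a start, held 4.13% of Wt25 and 4.4% of AA10 windows, and 1.94% of bins. On the other chromosomes the promoter shares were 2.52% and 3.26%. The median distance to a start site was 14.1 kb for Wt25 and 13.4 kb for AA10 windows, against 21.6 and 22.8 kb on the other chromosomes.

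Coding exons held 32 Wt25 and 2 AA10 windows, so 94.1% of coding windows (80.9 to 98.4) were higher in Wt25. On the other chromosomes 64.1% were (60.1 to 67.8), but chromosome 7 was chosen for its Wt25 majority. Coding exons held 3.78% of its Wt25 windows (2.69 to 5.28), close to 3.4% on the other chromosomes. For AA10 they held 0.629% (0.173 to 2.26), against 2.55%, and the share here rests on 2 windows. The 32 Wt25 windows fell in 31 genes, with 2 in *Shisa7*, whereas both AA10 windows lay in *Zfp773*. Among the Wt25 coding windows were those of *Dbp*, a circadian PAR bZIP factor, with 9 CpGs, *Pnpla2*, the adipose triglyceride lipase, with 9, *Akap13* with 7, *Xylt1*, a xylosyltransferase gene, with 7, *Fgf3* with 6 and *Chd2* with 3. The 3′ UTRs held 17 and 3 windows. Within promoters 71.4% (57.6 to 82.2) of 49 windows were higher in Wt25. The share was 75.4% (71.5 to 79) of 509 in introns and 68.2% (64.1 to 72.1) of 519 in intergenic sequence. Because the chromosome was chosen for its Wt25 majority, a majority within these classes is no support for it.

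The promoter windows were 35 for Wt25, near 32 genes, and 14 for AA10, near 12. Their median CpG number was 3 for Wt25 and 5.5 for AA10. The CpG-richest window of the chromosome was an AA10 window at the start of *Zfp629*, with 36 CpGs and 84.8% GC, at -34 bp from the start, and the adjacent AA10 window had 11. The start of *Ethe1*, a mitochondrial sulfur dioxygenase gene, and *Zfp575* held 2 AA10 windows with 6 and 12 CpGs. For Wt25, *Trim68* had 22 CpGs at 26 bp from its start, *Eps8l2* 12, and *Tmem159* 9. *Nccrp1* had 8 at -22 bp, directly beside the coding window printed above. Of 23 windows with at least 10 CpGs, 19 were higher in Wt25 and 4 in AA10. Outside the promoter class, they included 17 CpGs in *Tmc5*, only 204 bp from its start, and 10 in an intron of *Ltbp4*. Adjacent Wt25 windows behind *Adm*, the adrenomedullin gene, held 11 and 10. An AA10 window with 10 lay in an intron of *Adm*, 444 bp from its start.

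Windows of both directions held more CpGs than the chromosome at large. The mean was 3.24 ± 2.41 CpGs (SD, 847 windows) for Wt25 and 3.11 ± 2.74 (318 windows) for AA10, against 1.70 ± 2.26 in 709247 bins. No CpG was found in 0.59% of Wt25 windows, 0.314% of AA10 windows and 30.2% of bins. GC content was 48.1% ± 6.6 for Wt25, 46.1% ± 7.5 for AA10 and 43.1% ± 7.9 in bins. The differences between the directions were small beside the SD of windows. The share of Wt25 windows was 70.3% (64.8 to 75.3) among windows with 0 to 1 CpG, 73.2% (69.1 to 76.9) with 2 to 3, 71.8% (66.4 to 76.7) with 4 to 6, 79.2% (68.4 to 86.9) with 7 to 9 and 82.6% (62.9 to 93) with 10 or more. These intervals overlap.

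**Figure D5:**
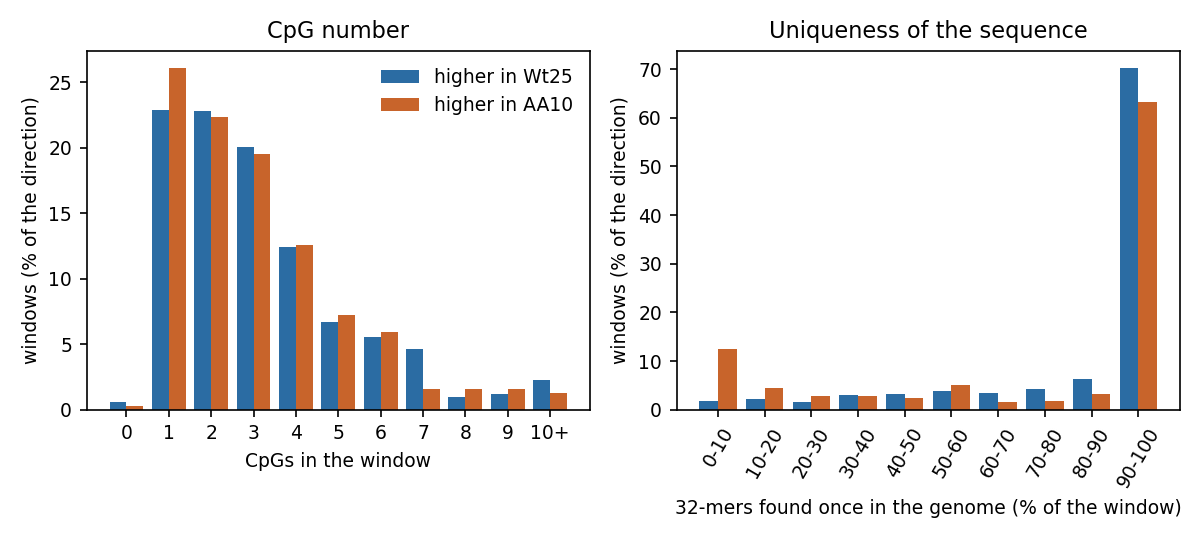
Left, windows by their number of CpGs, and right, by the percent of their 32-mers that occur 1 time in the genome, each in percent of the windows of a direction. Wt25 (blue) and AA10 (orange) are alike in CpG number, with means of 3.24 and 3.11, and AA10 has more windows with few unique 32-mers, 25.2% against 11.9% under 50%.

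Sequence with copies elsewhere was more common among AA10 windows. Under 50% of 32-mers were unique in 25.2% of AA10 and 11.9% of Wt25 windows. Without the dense cluster, the AA10 share was 10.9% (7.67 to 15.2) and Wt25 remained at 11.9% (9.91 to 14.3). Where at least 50% of 32-mers were unique, 75.8% (73 to 78.4) of windows were higher in Wt25, and in the others 55.8% (48.5 to 62.8). Bases marked as repeats were 32.1% of Wt25 windows, 36.8% of AA10 windows and 35.4% of bins. The authors kept only uniquely aligned reads. How reads in sequence with copies differed between the lines was not tested, as the lists hold no reads.

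Short motifs were counted on both strands. CCGG, the site of MspI and HpaII, was in 22.8% of Wt25 and 21.7% of AA10 windows, and in 10.8% of bins. TTTAAAA was in 7.2%, 6.6% and 9.94%. A match is a description of letters and not a bound site.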

How the data were processed

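Windows were taken from the deposited lists, which give a chromosome, a start, an end and a gene identifier, with other values of no numeric unit. To make them, the authors used STAR for unique alignment of the 5hmC-DIP reads to GRCm38 and Picard to drop duplicates, and then compared 3 libraries per line with MEDIPS in 200 bp bins at P under 0.05 and a fold change of at least 1. Bins over IgG-DIP peaks, tandem repeats or low complexity sequence were removed by the authors, and HOMER assigned genes. Tool versions are not given in the sources used here.

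For each window, sequence was read from GRCm38.p6, the same build. The feature of its midpoint and the genes around it came from curated RefSeq transcripts, with GENCODE vM21 as an alternative. Its 32-mers were counted over the whole genome on both strands. Deposited identifiers were matched to symbols for all 832 Wt25 and 309 AA10 windows that had one, and 15 and 9 had none. Counting, joining, run finding and intervals were tested on simulated data, in 10 checks. The tools were numba 0.67.0, scipy 1.17.1, matplotlib 3.10.9, pandas 2.3.3 and numpy 2.4.6 under Python 3.11.15.

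The 12 genes with most Wt25 windows, the 8 with most AA10 windows, up to 6 with both, up to 4 per gene list, and the genes of AA10 segments, AA10 runs of at least 5 and the 6 longest Wt25 runs were named. Other genes were named after their values had been seen. Members and lists were chosen with earlier results of these data known. Groups were the lines in the sample labels. No test was made, because the lists pool replicates. Libraries of RNA, H3K27ac, MNase and genomic DNA input were not analysed here. Some genes with windows are not reported here.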

Additional observations from a re-analysis of the deposited data

How the results depend on the processing

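Of 38 alternative values for 11 results, 21 moved by less than the interval or SD of the value as reported, or by less than 1.5 times for a count. The Wt25 share stayed above 50% in every setting tried, but the chromosome was chosen for this majority, so that is no support for it. Putting back the Wt25 stretch or dropping the AA10 cluster can only raise the share. The Wt25 share of 72.7% became 75.3% with the stretch left out put back, 76% without the dense AA10 cluster, 75.8% in windows with at least 50% unique 32-mers and 61.4% without the 10 segments of 1 Mb with the largest excess. Before the midpoint it became 76.8%, 78.6% and 79% in the first 3 of these settings, in that order, and 76.2% in windows with at most 50% repeat-marked bases; after the midpoint it ran from 70% to 72.4%. Segments of 10 Mb with a Wt25 majority went from 13 to 14 without the cluster and with windows within 1 kb joined, as that from 0 to 10 Mb turned. AA10 prevailed in 19 segments of 1 Mb with at least 3 windows and in 5 with at least 8. Intergenic shares with GENCODE were 33.1% for Wt25 and 44.7% for AA10, and the AA10 share was 42.9% with windows within 1 kb joined. Genes with a window numbered 362 and 182 by deposited identifier and 376 and 189 by nearest start site, for Wt25 and AA10. Apart from settings whose construction sets the change, the cause was not tested. The settings on unique 32-mers, on the 10 segments and on GENCODE gene counts were added after the data had been seen. No replicate could be left out, no paired analysis was possible and no stricter threshold could be set, because the lists hold no values of replicates. The depth behind a window is not known.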

Other observations

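The count of *Fgfr2* depended on the gene models. In GENCODE the span of *Fgfr2*, a fibroblast growth factor receptor gene, is chr7:130162451-133123350 and held 15 Wt25 and 7 AA10 windows, while the RefSeq gene ends at position 130266808 and held 1 of each direction. With the GENCODE span, *Fgfr2* would hold more AA10 windows than any RefSeq gene of the chromosome, but the span also covers other genes, *Tacc2* among them. For *Sipa1l3* GENCODE gave 42 windows in place of 37, all higher in Wt25.

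The deposited gene of a window, assigned by the authors, named *Sipa1l3* for 64 Wt25 windows, *Scgb2b7* for 20, *Plekha7* for 14 and *Psg18* for 13. For AA10 it named *Vmn2r33* for 32, *Vmn2r32* for 22, *Zfp773* for 6 and *Atp10a* for 5. By this assignment, which does not need a window to lie inside the gene, vomeronasal receptor genes rather than *Cyp2b13* had most AA10 windows.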
